A study of Mus musculus with 64 samples.

Results

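Transcripts of 43 genes of the TGF-beta and BMP pathways were measured in mammary tumors of PyMT mice with and without deletion of Abi1. The genes were a list of names that was matched to the gene symbols of the deposited counts, which cover 55385 genes. Each of the 43 names was found once, and 42 of the genes were among the 22187 that passed the filter on low counts. The exception was Nog, an antagonist of BMP ligands, with 0 to 10 counts in a tumor. Total RNA of 8 primary tumors from 4 female mice was sequenced, with 2 tumors from each mouse and 1 mouse per genotype. All 4 mice carried the PyMT transgene, the polyoma middle T antigen, which drives tumor formation in the mammary gland. Tumors 1 and 6 of G174, which was Abi1 fl/fl and Cre+, stood for the homozygous KO, and tumors 6 and 9 of G184, fl/fl without Cre, for its control. Tumors 3 and 6 of G164, which was fl/wt and Cre+, stood for the heterozygous KO, and tumors 6 and 8 of G144, fl/wt without Cre, for its control. Cre came from the MMTV-Cre transgene of Line D, on a mixed strain, and acts in mammary epithelium. The PyMT and floxed Abi1 mice were on C57BL6. By the tables of the study, G174 and G144 were the younger mice and G184 and G164 the older ones.

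The ligands of this family, TGF-beta, activins, BMPs and GDFs, bind pairs of type I and type II serine/threonine kinase receptors on the cell surface. TGF-beta and activin receptors activate Smad2 and Smad3, BMP receptors activate another set of Smads, and both sets enter the nucleus with Smad4. TGF-beta is secreted in a latent form that is tethered to the matrix by some members of the latent TGF-beta binding protein family. BMPs are held back by secreted antagonists, and Smad6 and Smad7 inhibit the pathway from within the cell. In the mammary gland TGF-beta restrains the growth of epithelium and can promote invasion of tumor cells, and the Id genes are classical targets of BMP signaling.

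Levels are given as CPM, the count of a gene scaled to a common library total after TMM normalisation, which also corrects for the composition of each library. Changes are log2 fold changes with their standard errors (SE). They come from the quasi-likelihood test of edgeR, fitted to the 8 tumors together, and a gene is called where its p-value, adjusted over the 22187 genes as a false discovery rate (Benjamini-Hochberg), is below 0.05. Because each genotype is a single animal, genotype, mouse and age cannot be told apart, and the spread behind the p-values of this fit is that of tumors within an animal. The tumors held 50346075 to 69264893 gene counts, with a median of 66415184. Abi1 was at 8.93 and 6.47 CPM in the tumors of G174, against 114 and 122 CPM in G184, and at 63.1 and 66.7 CPM in G164, against 111 and 130 CPM in G144. The 6 luminal markers summed to between 3447 and 4148 CPM in every tumor, and no marker of the 9 lists of cell type and mitosis markers was at 0 in any tumor. Skeletal muscle markers reached a sum of 141 CPM in tumor 3 of G164 and 143 CPM in tumor 8 of G144, against at most 1.93 CPM in the other tumors. In whole tumors, fewer cells of a type and less RNA per cell cannot be told apart.

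For 5 members the homozygous and the heterozygous KO comparison differed beyond the threshold, and the stretches just upstream of these genes are shown here to place them in the genome. These were Tgfbr1 and Tgfbr2, the type I and type II receptors of TGF-beta, Smad3, a transcription factor they activate, Bmp5, a BMP ligand, and Chrd, which encodes the BMP antagonist chordin. The sequences are the 250 bases before the start of each gene in RefSeq (GRCm38.p6), written 5′ to 3′ on the strand of the gene. The RefSeq table held an entry for 30 of the 43 members, and Tgfbr1 had 2 starts in it, of which the more upstream is shown. Capitals mark matches on either strand to GGGCGG (GC box), CAGAC (SMAD box) or GGCGCC (a GC-rich palindrome).
Tgfbr1, chr4:47352972-47353221, forward strand: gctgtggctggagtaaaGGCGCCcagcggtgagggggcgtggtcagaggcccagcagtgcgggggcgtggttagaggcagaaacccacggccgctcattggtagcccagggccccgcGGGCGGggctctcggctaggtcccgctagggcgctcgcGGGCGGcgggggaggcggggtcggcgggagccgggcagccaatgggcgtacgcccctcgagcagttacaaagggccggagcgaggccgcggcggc
Tgfbr2, chr9:116175364-116175613, reverse strand: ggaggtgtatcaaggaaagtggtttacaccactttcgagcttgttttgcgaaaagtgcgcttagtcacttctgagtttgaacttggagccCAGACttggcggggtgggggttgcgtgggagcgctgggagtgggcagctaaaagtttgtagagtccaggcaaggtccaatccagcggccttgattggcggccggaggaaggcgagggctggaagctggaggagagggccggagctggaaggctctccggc
Smad3, chr9:63757995-63758244, reverse strand: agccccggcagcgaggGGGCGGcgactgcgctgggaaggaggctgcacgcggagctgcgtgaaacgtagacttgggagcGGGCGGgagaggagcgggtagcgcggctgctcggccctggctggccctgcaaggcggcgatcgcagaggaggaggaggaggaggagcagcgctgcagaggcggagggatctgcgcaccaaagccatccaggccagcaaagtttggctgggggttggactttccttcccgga
Chrd, chr16:20732877-20733126, forward strand: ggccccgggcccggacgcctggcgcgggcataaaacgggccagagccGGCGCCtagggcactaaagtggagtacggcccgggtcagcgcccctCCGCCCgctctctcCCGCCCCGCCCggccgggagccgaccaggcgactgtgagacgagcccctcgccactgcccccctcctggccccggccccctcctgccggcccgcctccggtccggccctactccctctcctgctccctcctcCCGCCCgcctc
Bmp5, chr9:75775115-75775364, forward strand: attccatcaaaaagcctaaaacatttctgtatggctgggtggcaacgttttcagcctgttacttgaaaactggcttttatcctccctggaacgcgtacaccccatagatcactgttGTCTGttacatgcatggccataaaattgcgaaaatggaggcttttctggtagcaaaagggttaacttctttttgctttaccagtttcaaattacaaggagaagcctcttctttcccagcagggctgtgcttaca
Tgfbr1 held 2 GC boxes and 1 palindrome, Smad3 held 2 GC boxes, and Chrd held 4 GC boxes, of which 2 overlapped by 1 base, and 1 palindrome. Tgfbr2 and Bmp5 each held 1 SMAD box and neither of the other motifs. The G and C content was 74.8% for Tgfbr1, 58.4% for Tgfbr2, 69.2% for Smad3, 78.0% for Chrd and 42.8% for Bmp5, against a median of 52.4% over all 32851 promoter entries. Of all entries, 32.7% held a GC box, 42.2% a SMAD box and 9.59% the palindrome within the same length. Of the 30 members with an entry, 21 (70.0%) held a GC box, 15 a SMAD box and 7 (23.3%) the palindrome, with a median G and C content of 65.6%. The members were taken at 1 start each, while the 32851 entries cover 27025 genes, some with more than 1 start. The shares were not adjusted for G and C content, so the 2 sets are not matched. A match of letters is a description and not a bound site.

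The pathway was present at every level in these tumors, with 1 or 2 genes dominating most roles. Levels of different genes were compared as CPM per kb of exons. Tgfb3 had the highest level of all 43 members, with a mean of 113 CPM per kb over the 8 tumors, and made up 87.5% to 93.5% of the 3 TGF-beta ligands in a tumor. Tgfb2 was at 7.47 and Tgfb1 at 4.82 CPM per kb. Id2, which encodes an inhibitor of basic helix-loop-helix factors, was second at 69.6 CPM per kb and made up 75.3% to 91.6% of the 4 Id genes. Inhbb, the beta B subunit of activin B, followed at 44.4 CPM per kb, far above Inhba (0.632) and Inha (0.330). Ltbp2 and Ltbp3, of the family of latent TGF-beta binding proteins, were at 34.7 and 30.2 CPM per kb. Among receptors, Tgfbr2 (33.4), Bmpr1a (32.7) and Tgfbr1 (23.6) had the highest CPM per kb, and the ranges of Tgfbr2 and Bmpr1a over the tumors overlapped. Bmpr1b, a type I BMP receptor, was at 0.221 CPM per kb. Among the 5 Smads the order was Smad4 (21.9), Smad3 (12.5), Smad2 (8.56), Smad7 (4.89) and Smad6 (2.41 CPM per kb), and no neighbours in that order overlapped over the tumors. All 8 BMP and GDF ligands were below 1 CPM per kb, with Gdf10 at 0.909 and Bmp5 at 0.131. The secreted antagonists were low as well, with follistatin (Fst) at 3.68, Chrd at 0.247, Grem1 at 0.114 and Nog at 0.0324 CPM per kb.

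**Figure D1:**
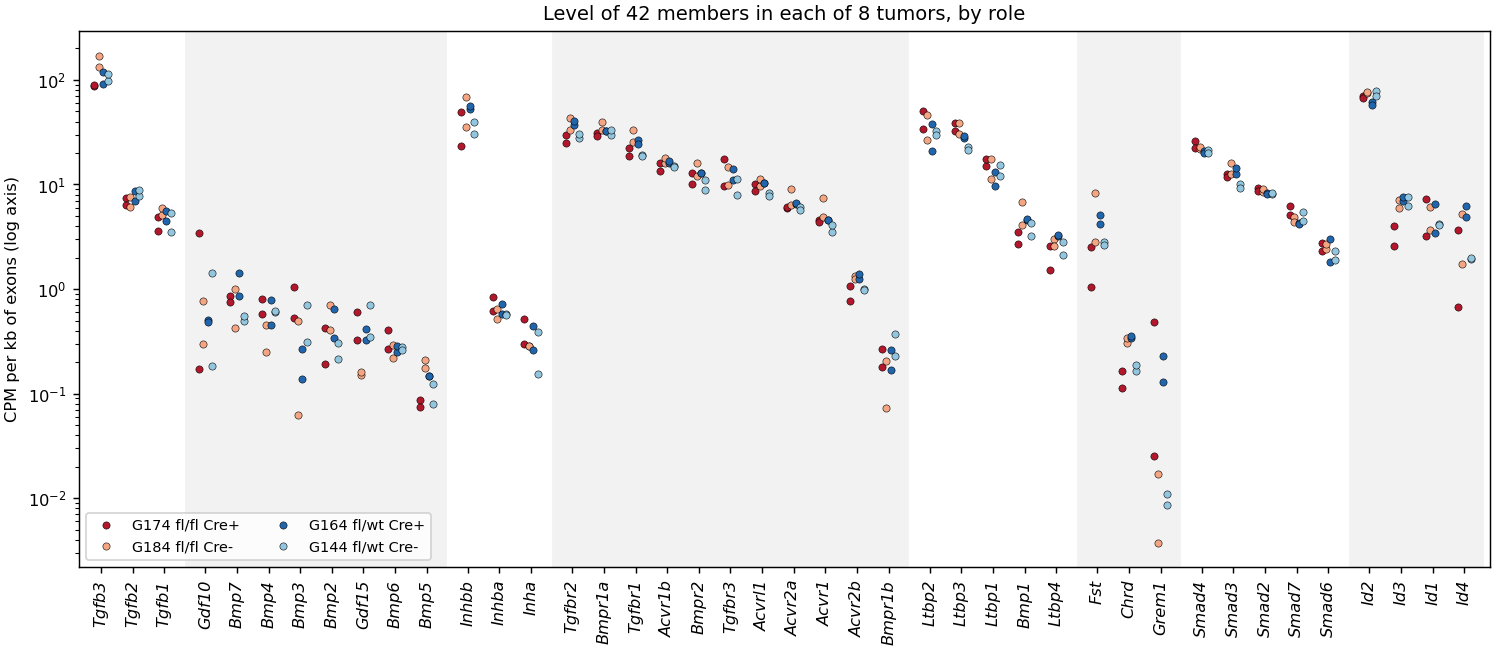
Level of 42 members in CPM per kb of exons (log axis) in each of 8 tumors, grouped by role from left (TGF-beta ligands) to right (Id genes), with a point for each tumor coloured by mouse; Nog is left out because 2 of its values are 0. Tgfb3, Id2 and Inhbb stand highest, the BMP and GDF ligands lie near or below 1 CPM per kb in most tumors, and Grem1 spreads most widely.

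Variation between tumors differed greatly between the members. The ratio of the highest to the lowest of the 8 tumors had a median of 2.03 over the 42 members, against 1.91 over all genes tested. It was below 2 for 21 members and above 10 for 3, namely Grem1, Gdf10 and Bmp3. The steadiest was Smad2, the partner of Smad3 downstream of the TGF-beta receptors, at 81.8 and 76.4 CPM in G174, 75.2 and 80.3 CPM in G184, 72.9 and 70.5 CPM in G164, and 71.1 and 73.1 CPM in G144, a ratio of 1.16. Smad4, the common partner Smad and the one with the most counts among the Smads outside the named changes, had 96.3 and 82.7 CPM in G174, against 81.0 and 83.8 CPM in G184. It had 77.4 and 74.4 CPM in G164, against 79.4 and 74.5 CPM in G144. Neither KO comparison called Smad2 or Smad4, with log2 fold changes within 0.12 of 0.

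Of the 42 members tested, 4 (9.52%) were lower in the homozygous KO than in its control and 0 were higher by the edgeR test. Over all genes tested, 7.70% were lower and 5.44% were higher, so that the share of lower members was near that of all genes. At an unadjusted p under 0.05, 9 members were lower and 3 higher. That share of members was no larger than the 31.6% of all genes past that limit in either direction. DESeq2 called 7 members lower and 1 higher. The share of all genes called by DESeq2 was not worked out for any comparison, so its counts of members have no background beside them. The median log2 fold change of the members was −0.15, against −0.0012 over all genes. The 4 members were Tgfb3, Bmp5, Chrd and Id3, which are 2 ligands, an antagonist and a target gene. In the fit of G174 and G184 alone, 0 members were called, so that all 4 lost their calls.

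Tgfb3, the dominant TGF-beta ligand of these tumors, was 1.73-fold lower in the homozygous KO. The gene lies at chr12:86056745-86079041 of GRCm38 on the reverse strand. It was at 294 and 304 CPM in G174, against 454 and 578 CPM in G184, and the 2 mice did not overlap. G164 had 306 and 402 CPM, against 328 and 382 CPM in G144, so that the heterozygous pair overlapped. The log2 fold change was −0.79 (SE 0.18, edgeR adjusted p = 0.0323) in homozygotes and −0.0039 (SE 0.17, adjusted p = 0.992) in heterozygotes, and the difference of −0.78 between them missed the threshold (adjusted p = 0.0575). The homozygous call was lost without either tumor of G174, tumor 9 of G184 or tumor 6 of G144, with adjusted p between 0.0513 and 0.162 and log2 fold changes of −0.60 to −0.79. Tgfb3 overlaps the exons of Gm37804 and Gm48008 on the other strand, and its count without regard to strand was 0.780 times that used here. The other 2 TGF-beta ligands were not called in any comparison. Tgfb2 was at 43.2 and 36.6 CPM in G174 and 44.1 and 34.9 CPM in G184, which overlap, and at 40.3 and 50.2 CPM in G164 and 45.4 and 51.6 CPM in G144, which overlap too, and Tgfb1 ranged between 17.6 and 29.7 CPM over all tumors.

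**Figure D2:**
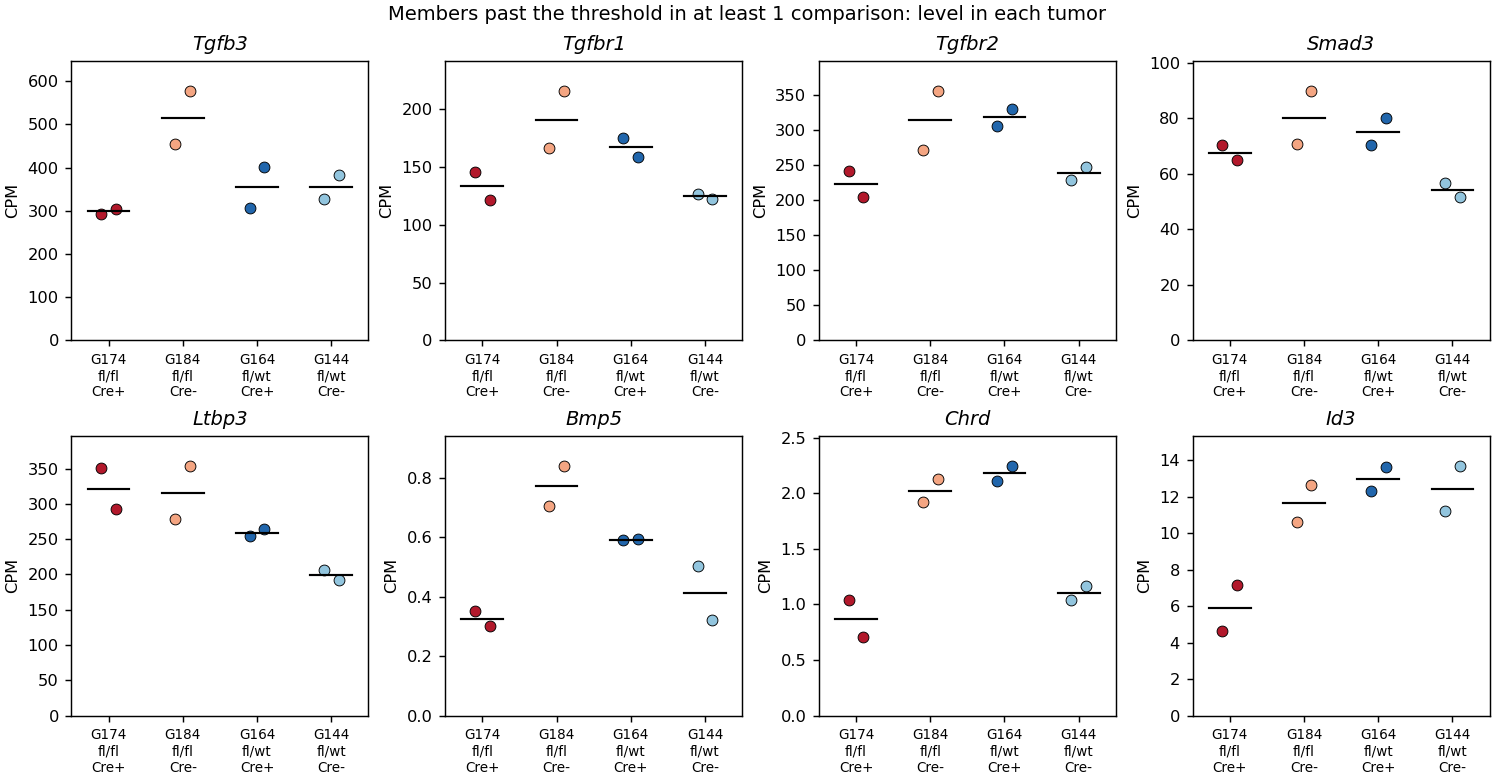
CPM (linear axes from 0) of the 8 members past the threshold in at least 1 comparison, where a point is a tumor and a line is the average of its mouse; the homozygous KO G174 stands left of its control G184, and the heterozygous KO G164 left of its control G144. Chrd is at 1.04 and 0.708 CPM in G174 against 1.92 and 2.13 CPM in G184, and at 2.11 and 2.25 CPM in G164 against 1.04 and 1.17 CPM in G144.

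Id3, a target of BMP signaling that encodes an inhibitor of basic helix-loop-helix factors, was 1.98-fold lower in the homozygous KO. The gene lies at chr4:136143497-136145755 on the forward strand. It was at 4.62 and 7.17 CPM in G174, against 10.6 and 12.7 CPM in G184. The tumors of G164 had 12.3 and 13.6 CPM, against 11.2 and 13.7 CPM in G144, so that G174 was below all the other tumors. The log2 fold change in homozygotes was −0.98 (SE 0.24, edgeR adjusted p = 0.0406), and that in heterozygotes was 0.06 (SE 0.24, adjusted p = 0.901). The homozygous call was kept only without tumor 6 of G174 (adjusted p = 0.0282) and was lost without each of the other 7 tumors, with adjusted p between 0.0585 and 0.185. Of the 8 alternative fits that were not made by leaving out a tumor, 6 kept the homozygous call of Id3. The other Id genes were not called in any comparison. Id2 was at 173 and 163 CPM in G174, against 181 and 187 CPM in G184, and at 151 and 142 CPM in G164, against 191 and 171 CPM in G144. Both KO mice were thus below their controls in Id2, with log2 fold changes of −0.13 in homozygotes and −0.31 in heterozygotes, and neither passed (edgeR adjusted p = 0.389 and 0.114).

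Chrd and Bmp5 were lower in the homozygous KO as well, at low counts. Chrd, at chr16:20733127-20742384 on the forward strand, had 68 and 47 counts in G174, against 136 and 137 counts in G184. Its log2 fold change was −1.21 (SE 0.25, edgeR adjusted p = 0.0275). The heterozygous pair lay the other way, with 111 and 140 counts (2.11 and 2.25 CPM) in G164, against 68 and 65 counts (1.04 and 1.17 CPM) in G144, and missed the threshold at a log2 fold change of 0.99 (SE 0.25, adjusted p = 0.0753). Bmp5, at chr9:75775364-75900310 on the forward strand, had 23 and 20 counts (0.350 and 0.301 CPM) in G174, against 50 and 54 counts (0.705 and 0.839 CPM) in G184. It had 31 and 37 counts (0.591 and 0.594 CPM) in G164, against 33 and 18 counts (0.503 and 0.323 CPM) in G144. The log2 fold change of Bmp5 was −1.24 (SE 0.32, edgeR adjusted p = 0.0462) in homozygotes and 0.51 (SE 0.32, adjusted p = 0.356) in heterozygotes. The homozygous call of Chrd was lost without tumor 6 of G174 or without any tumor of G184 or G164, with adjusted p of 0.0549 to 0.130. That of Bmp5 held without tumor 8 of G144 (adjusted p = 0.0481) and was lost without each of the other 7 tumors (0.0512 to 0.197). Both genes overlap another gene on the other strand, Chrd with Thpo and Bmp5 with Gm26903. On counts without regard to strand the log2 fold changes were −0.90 for Chrd and −1.18 for Bmp5, with adjusted p = 0.110 and 0.153. The call of Chrd was also lost in the second sequencing run alone (0.0796), and that of Bmp5 in the first and the second run alone (−0.94 at an adjusted p of 0.114 in the first run and −1.64 at 0.0602 in the second, on the log2 scale) and by DESeq2 (0.0970).

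The homozygous KO tumors also had lower markers of immune cells. Of 6 T cell markers 6 were lower, with sums of 5.20 and 5.48 CPM in G174, against 19.7 and 18.2 CPM in G184. Of 6 macrophage markers 4 were lower, with sums of 197 and 222 CPM in G174, against 348 and 469 CPM in G184. Of 8 fibroblast markers 1 was lower, with sums of 2034 and 1057 CPM in G174, against 1957 and 1532 CPM in G184. Of 6 endothelial markers 1 and of 5 adipocyte markers 1 were lower, and of 6 luminal markers 1 was higher. The part of these cells in the lower levels of Tgfb3, Bmp5, Chrd and Id3 was not tested.

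No member was called in heterozygotes by the edgeR test, where 2.72% of all genes were higher and 1.29% lower. At an unadjusted p under 0.05, 8 members were higher and 1 was lower, a share of members no larger than the 25.3% of all genes past that limit in either direction, and DESeq2 called 3 members higher and 0 lower, namely Grem1, Chrd and Smad3. The fit of G164 and G144 alone also called 3 higher members, Grem1, Fst and Id4. The share of all genes called was not worked out for that fit or for DESeq2. The median log2 fold change of the members was 0.23, against 0.02 over all genes. Of the 42 members 29 were positive and 13 (31.0%) negative, where 48.6% of all genes were negative. Of 11 receptors, 10 had a positive log2 fold change in heterozygotes and 9 a negative one in homozygotes, with none past the threshold in either. Between the controls, neither of which carries Cre, 10 of the 11 receptors were also positive in G184 over G144. Over all roles, 21 members (50%) were negative in homozygotes and positive in heterozygotes, against 37.5% of all genes, and 11 had the opposite pair of signs. Fibroblast markers moved with the heterozygous comparison, with 2 of 8 called higher and sums of 3014 and 2703 CPM in G164, against 1366 and 1512 CPM in G144. T cell markers did so too, with 2 of 6 called higher and sums of 19.4 and 23.2 CPM in G164, against 7.85 and 8.87 CPM in G144, as did 1 of 6 macrophage markers (366 and 376 CPM in G164, against 189 and 262 CPM in G144) and 1 of 5 adipocyte markers (24.0 and 65.5 CPM in G164, against 12.7 and 19.0 CPM in G144). The part of these cells in the member values was not tested.

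**Figure D3:**
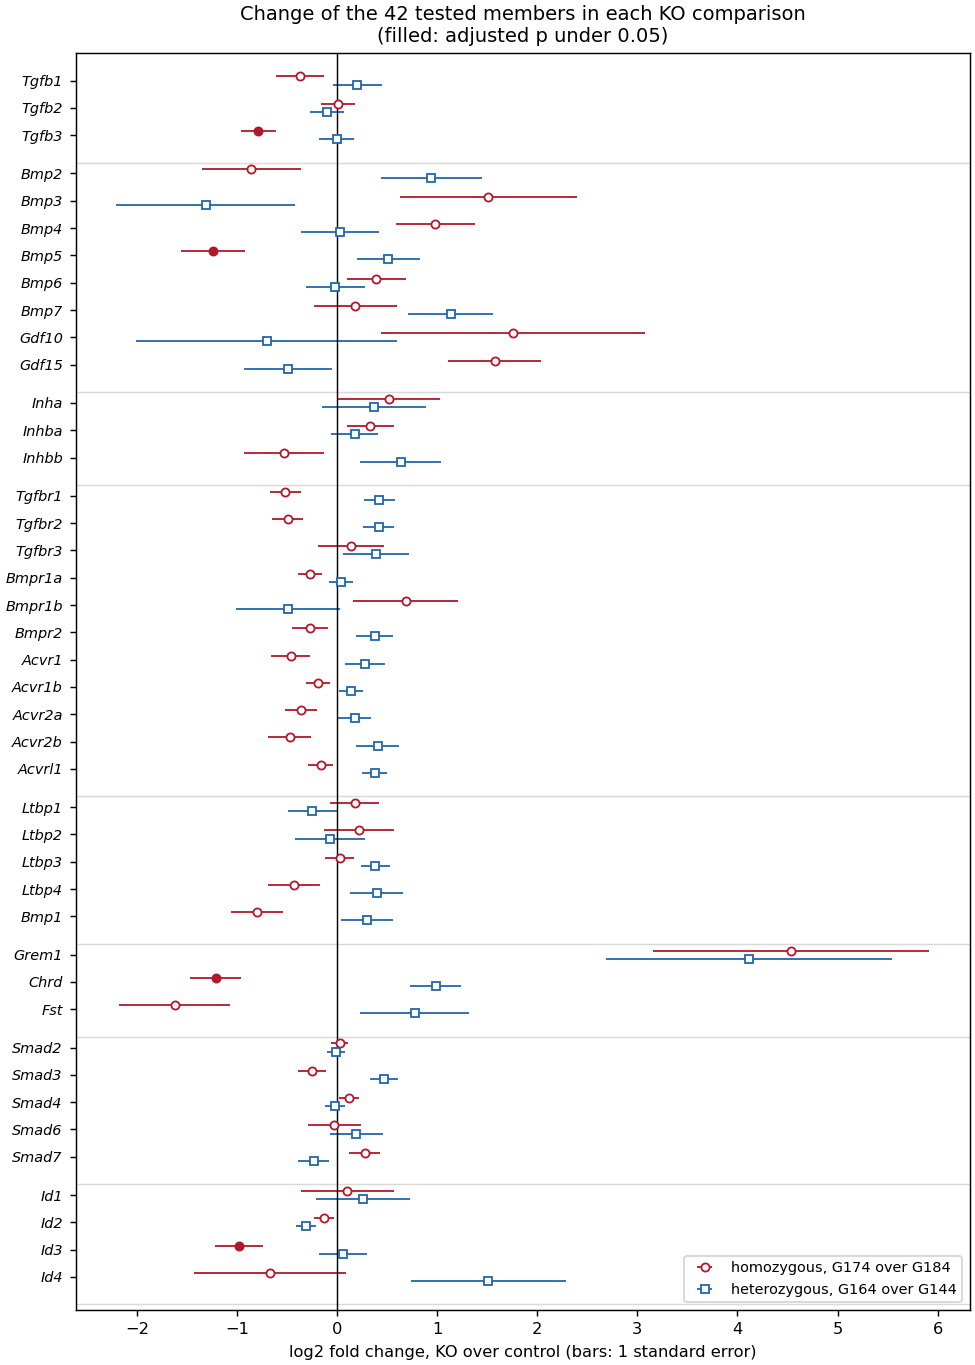
Log2 fold change of KO over control for the 42 members tested, with bars of 1 standard error; circles are the homozygous comparison (G174 over G184), squares the heterozygous comparison (G164 over G144), and filled symbols passed the threshold. The receptors lie mostly left of 0 in homozygotes and right of 0 in heterozygotes, and Grem1 lies far to the right in both with wide error bars.

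The KO effects in homozygotes and heterozygotes differed for 5 of 42 members (11.9%), all with a negative difference, by the interaction of genotype and Cre in edgeR. Over all genes 13.1% had a negative and 12.0% a positive difference past the threshold, so that the share of negative members was near that of all genes. No member had a positive difference past the threshold, with 1 positive and 14 negative at an unadjusted p under 0.05, where 40.0% of all genes passed in either direction, and 1 positive and 9 negative by DESeq2. The same contrast compares the younger mice G174 and G144 with the older mice G184 and G164, and the 2 readings cannot be told apart. All 4 tumors of G174 and G144 were apart from all 4 of G184 and G164 in 7 members (16.7%), against 26.5% of all genes. In each of the 7 the tumors of G174 and G144 were the lower ones. They were the 5 called members with the activin receptors Acvr2a and Acvr2b.

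Tgfbr1 and Tgfbr2, the receptor pair that binds TGF-beta, were both lower in the 2 younger mice than in the 2 older ones, while the order within each of these pairs of mice was not the same for both genes. Tgfbr1, at chr4:47353222-47414931 on the forward strand, was at 146 and 122 CPM in G174, against 166 and 216 CPM in G184. In heterozygotes it was at 175 and 159 CPM in G164, against 126 and 123 CPM in G144. Its log2 fold changes were −0.51 in homozygotes (SE 0.15, edgeR adjusted p = 0.0667) and 0.42 in heterozygotes (SE 0.15, adjusted p = 0.146). Neither comparison passed on its own, while their difference of −0.94 did (SE 0.21, adjusted p = 0.0226). Tgfbr2, at chr9:116084293-116175360 on the reverse strand, was at 242 and 204 CPM in G174, against 272 and 356 CPM in G184. It was at 306 and 330 CPM in G164, against 229 and 248 CPM in G144. The log2 fold changes of Tgfbr2 were −0.49 in homozygotes (SE 0.15, adjusted p = 0.0790) and 0.42 in heterozygotes (SE 0.15, adjusted p = 0.154), with a difference of −0.91 (SE 0.22, adjusted p = 0.0262). For both receptors the highest tumor of the younger mice stood below the lowest tumor of the older mice. Leaving out tumor 6 of G174, tumor 9 of G184 or any tumor of G164 or G144 cost both differences their call, with adjusted p of 0.0521 to 0.0787 for Tgfbr1 and 0.0542 to 0.0977 for Tgfbr2.

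Smad3, the effector downstream of these receptors, was also lower in all tumors of the younger mice than in those of the older mice. It lies at chr9:63646767-63757994 on the reverse strand and was at 70.2 and 64.9 CPM in G174, against 70.5 and 89.8 CPM in G184. In heterozygotes it was at 70.4 and 79.9 CPM in G164, against 56.5 and 51.8 CPM in G144. Tumor 1 of G174 and the lower tumor of each older mouse were nearly equal. The difference of its KO effects was −0.72 (SE 0.20, edgeR adjusted p = 0.0383), made of −0.25 in homozygotes and 0.47 in heterozygotes. It held only without tumor 6 of G184 (adjusted p = 0.0267) and missed the threshold without each of the other 7 tumors (0.0602 to 0.132). Chrd had the largest difference among the called members, −2.20 (SE 0.36, adjusted p = 0.00792), and kept its call without each of the 8 tumors in turn, with adjusted p of 0.00978 to 0.0385. The difference of Bmp5 was −1.75 (SE 0.45, adjusted p = 0.0310), and it held only without tumor 6 of G144 (adjusted p = 0.0471). It was lost without each of the other 7 tumors (0.0570 to 0.0952), in each sequencing run alone (0.0705 and 0.0504), on counts without regard to strand (0.193) and by DESeq2 (0.0831). Markers of mitosis and of several cell types moved with this contrast. Of 6 mitosis markers 5 and of 6 luminal markers 1 had a positive difference. Of 6 T cell markers 6 and of 6 macrophage markers 4 had a negative one. Of 5 adipocyte markers 4, of 8 fibroblast markers 2, and of 6 basal and 6 endothelial markers 1 each also had a negative difference, and their part in the member values was not tested.

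The control mice, neither of which carries Cre, differed in 3 of 42 members (7.14%), all higher in G184 than in G144, where 6.17% of all genes were higher and 6.40% lower. None was lower by the edgeR test, and the fit of G184 and G144 alone called 0 members. At an unadjusted p under 0.05, 11 members were higher and 1 lower in G184, where 31.6% of all genes passed in either direction, and DESeq2 called 5 higher and 1 lower. Ltbp3, a latent TGF-beta binding protein at chr19:5740904-5758532 on the forward strand, was at 278 and 353 CPM in G184, against 206 and 192 CPM in G144, with a log2 fold change of 0.67 (SE 0.15, edgeR adjusted p = 0.0310). The Cre-positive mice had 350 and 293 CPM of Ltbp3 in G174 and 254 and 265 CPM in G164, with log2 fold changes of 0.03 in homozygotes and 0.38 in heterozygotes, neither of which passed (adjusted p = 0.917 and 0.164). Tgfbr1 and Smad3 were the other 2, with log2 fold changes of 0.62 and 0.57 between the controls (SE 0.15 and 0.14, adjusted p = 0.0427 and 0.0432). The 3 calls were lost without tumor 9 of G184 and without any tumor of G164 or G144, with adjusted p of 0.0626 to 0.194, and that of Smad3 also without tumor 1 of G174 (0.0508). The median log2 fold change of the members was 0.26, against 0.01 over all genes. Of the 42 members 33 were positive and 9 (21.4%) negative, where 49.4% of all genes were negative. Between the controls, 4 of 6 macrophage markers, 3 of 6 T cell markers and 2 of 8 fibroblast markers were higher in G184, and 5 of 6 mitosis markers were lower. Whether these cells account for the 3 member values was not tested.

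Comparing both Cre-positive mice with both Cre-negative mice called 0 of 42 members by edgeR, where 0.0586% of all genes were higher and 0.0316% lower. At an unadjusted p under 0.05, 1 member was higher and 3 were lower, where 8.47% of all genes passed in either direction, and DESeq2 called 1 higher and 0 lower. That member was Grem1, which encodes gremlin, an antagonist that binds BMP ligands. It was the 1 member (2.38%) in which all 4 Cre-positive tumors were apart from all 4 Cre-negative tumors, against 1.80% of all genes. Grem1 had 133 and 7 counts in G174, against 5 and 1 counts in G184, and 28 and 59 counts in G164, against 3 and 2 counts in G144. In CPM these were 2.03 and 0.105 in G174, against 0.0705 and 0.0155 in G184, and 0.534 and 0.946 in G164, against 0.0457 and 0.0359 in G144. Tumor 1 of G174 alone held 95% of the counts of that mouse, and tumor 6 of G174 was close to the Cre-negative tumors. The log2 fold change over both pairs was 4.32 (SE 0.99, edgeR adjusted p = 0.321), a value that at such counts also depends on the prior count of the fit. DESeq2 gave 4.40 (adjusted p = 0.000622), edgeR without the filter on low counts 4.32 (adjusted p = 0.000239) and edgeR without tumor 6 of G174 4.79 (adjusted p = 0.0349). Without tumor 1 of G174 the value was 2.67 (adjusted p = 0.305). With counts summed per mouse, where the spread is that between mice with 2 residual degrees of freedom, it was 4.39 with an adjusted p of 1.0. Summed fibroblast markers in G174 were higher in tumor 1, at 2034 CPM, than in tumor 6, at 1057 CPM, and were 3014 and 2703 CPM in G164, and their part in Grem1 was not tested.

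Among the members not called, Gdf10 and Bmp3 differed strongly between the tumors of 1 mouse, and Bmp3 was picked out after its values were seen. Gdf10, a BMP-like ligand also known as Bmp3b and the most counted BMP or GDF member outside the named changes, was at 0.899 and 17.9 CPM in G174, against 1.54 and 4.03 CPM in G184. It was at 2.63 and 2.53 CPM in G164, against 7.42 and 0.968 CPM in G144. The tumors of G174 thus differed 19.9-fold and those of G144 7.66-fold, while those of G164 differed 1.04-fold. Bmp3, an atypical BMP that opposes other BMPs, was at 3.92 and 7.78 CPM in G174, against 3.63 and 0.466 CPM in G184, and at 1.03 and 1.99 CPM in G164, against 2.29 and 5.25 CPM in G144. The 2 tumors of G184 differed 7.78-fold in it. Neither ligand was called in any comparison, with standard errors of 0.88 to 1.32 on the log2 scale in the KO comparisons.

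Id4, Fst and Inhbb had the same order of the tumors within G174 and within G184, a pattern that was picked out after the values were seen. Id4 was at 2.59 and 14.2 CPM in tumors 1 and 6 of G174, against 6.66 and 20.0 CPM in tumors 6 and 9 of G184, and at 24.2 and 18.7 CPM in G164, against 7.45 and 7.58 CPM in G144. Follistatin (Fst), which binds activins, was at 4.83 and 11.7 CPM in G174, against 12.8 and 37.9 CPM in G184, and at 19.3 and 23.5 CPM in G164, against 12.9 and 12.2 CPM in G144. Inhbb was at 98.7 and 208 CPM in G174, against 151 and 291 CPM in G184, and at 225 and 238 CPM in G164, against 168 and 130 CPM in G144. For each of the 3 genes tumor 6 of G174 stood above tumor 1, tumor 9 of G184 above tumor 6, and both tumors of G164 above both of G144. The sum of 6 basal and myoepithelial markers did the same, at 84.3 and 383 CPM in G174, against 266 and 849 CPM in G184, and at 793 and 706 CPM in G164, against 363 and 311 CPM in G144. Within G164, Fst and Inhbb were higher in tumor 6, while the basal sum was higher in tumor 3. The members Bmp2, Bmp1 and Acvr2a showed the same pattern over the 4 mice as Id4, Fst and Inhbb. The share of all genes with this pattern was not worked out. Id4, Fst and Inhbb did not pass the edgeR test over the 8 tumors in a KO comparison. Fst and Id4 did in the fit of G164 and G144 alone, and the part of basal cells in the values of these members was not tested. Over the members, the median fold between the 2 tumors of a mouse was 1.33 in G174, 1.28 in G184, 1.13 in G164 and 1.13 in G144. The same medians over all genes were 1.2, 1.17, 1.13 and 1.18.

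**Figure D4:**
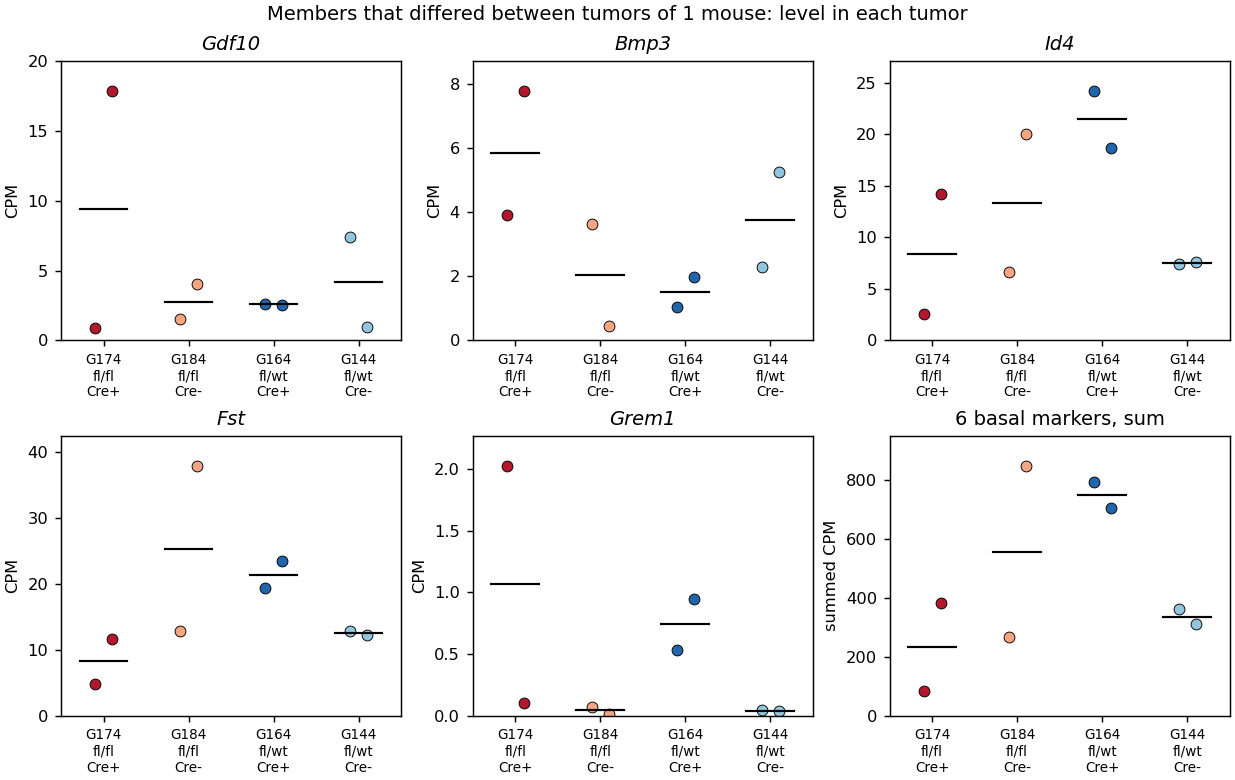
CPM (linear axes from 0) of Gdf10, Bmp3, Id4, Fst and Grem1, and the summed CPM of 6 basal and myoepithelial markers, with each point a tumor, the lower-numbered tumor of a mouse on the left, and each line the mean of the 2 tumors; each KO mouse stands left of its control. Gdf10 is at 0.899 and 17.9 CPM in the 2 tumors of G174, and Id4 and Fst follow the order of the basal markers within G174 and G184.

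The remaining members were not called in any comparison. Of the receptors, Bmpr1a, a type I receptor of BMPs, ranged between 185 and 254 CPM over the 8 tumors, Acvr1b, a type I receptor of activins, between 59.1 and 79.3, the coreceptor betaglycan (Tgfbr3) between 52.4 and 115, Acvrl1, the ALK1 receptor of endothelium, between 32.8 and 47.9, and Acvr1 between 17.0 and 35.6 CPM. The type II receptors of activins, Acvr2a and Acvr2b, ranged between 32.1 and 51.7 CPM and between 3.03 and 5.47 CPM, and Bmpr1b between 0.435 and 2.24 CPM. Bmpr2, which had the most counts among the receptors not called, was at 232 and 183 CPM in G174, against 215 and 286 CPM in G184, and at 234 and 230 CPM in G164, against 161 and 197 CPM in G144. Its heterozygous pair did not overlap and its homozygous pair did. Ltbp2, the most counted of the Ltbp genes, was at 411 and 280 CPM in G174, against 220 and 374 CPM in G184. It was at 170 and 312 CPM in G164, against 265 and 241 CPM in G144, with overlap in both pairs. Bmp1, a protease that cleaves chordin and procollagen and is no BMP ligand despite its name, was lower in both tumors of G174 (23.9 and 31.4 CPM) than in those of G184 (36.4 and 59.7 CPM), with a log2 fold change of −0.80 that missed the threshold (SE 0.26, edgeR adjusted p = 0.0852). Gdf15, a stress-responsive ligand, was at 1.13 and 0.602 CPM in G174, against 0.282 and 0.295 CPM in G184, with a log2 fold change of 1.58 that also missed it (SE 0.47, adjusted p = 0.0675). It was at 0.610 and 0.770 CPM in G164, against 0.640 and 1.31 CPM in G144, so that G184 had the 2 lowest tumors of all 8. Between the controls its log2 fold change was −1.74 (SE 0.47, adjusted p = 0.0540). Smad7, the inhibitory Smad, was at 27.99 and 23.08 CPM in G174, against 22.3 and 19.8 CPM in G184, with a log2 fold change of 0.28 (SE 0.15, adjusted p = 0.261). Smad6, the other inhibitory Smad, ranged between 5.81 and 9.66 CPM, and Id1 between 3.75 and 8.40 CPM. The ligands Bmp2 (0.686 to 2.52), Bmp4 (0.560 to 1.81), Bmp6 (0.847 to 1.58) and Bmp7 (1.72 to 5.76 CPM) and the subunits Inhba (3.30 to 5.33) and Inha (0.229 to 0.768 CPM) stayed low in every tumor. Ltbp1 ranged between 104 and 189 CPM and Ltbp4 between 9.89 and 21.5 CPM.

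Of 75 symbols that were listed for other genes of the pathway, 72 were found and 61 tested. The symbols included Ctgf with Ccn2 and Cyr61 with Ccn1, each pair an older and a newer name of the same gene. Of these 61 genes 3 were higher and 9 lower in the homozygous KO (19.7% called), against 5.44% higher and 7.70% lower over all genes. In the heterozygous KO 3 were higher and 0 lower (4.92%), against 2.72% and 1.29% of all genes, and in G184 against G144 5 were higher and 1 lower (9.84%), against 6.17% and 6.40% of all genes. In the difference of KO effects 4 were positive and 15 negative (31.1%), against 12.0% and 13.1% of all genes, and 0 were called between Cre-positive and Cre-negative mice. Of the 15 other Smads and intracellular regulators, 0 were called in any comparison. Dcn, which encodes decorin, a matrix proteoglycan that binds TGF-beta and one of the 8 fibroblast markers, was at 32.4 and 47.6 CPM in G174, against 116 and 211 CPM in G184, and at 163 and 188 CPM in G164, against 59.5 and 68.0 CPM in G144. Its log2 fold changes were −2.03 (SE 0.30, edgeR adjusted p = 0.0106) in homozygotes and 1.46 (SE 0.30, adjusted p = 0.0470) in heterozygotes, and the heterozygous call was lost without any tumor of G164 or G144 (0.130 to 0.240). Thbs1, which encodes thrombospondin-1, an activator of latent TGF-beta, was at 1202 and 1412 CPM in G174, against 454 and 561 CPM in G184, a log2 fold change of 1.37 (SE 0.25, adjusted p = 0.0183) that was lost without either tumor of G184 (0.0675 and 0.0727). Bambi, a pseudoreceptor that blocks the pathway, was at 19.8 and 17.2 CPM in G174, against 8.42 and 10.7 CPM in G184 (log2 fold change 0.96, SE 0.18, adjusted p = 0.0192), and its call was lost without tumor 1 of G174 or either tumor of G184 (0.0551 to 0.0677). Tgfbi, a matrix protein induced by TGF-beta, was higher in the heterozygous KO, at 103 and 94.2 CPM in G164, against 43.2 and 49.5 CPM in G144 (log2 fold change 1.09, SE 0.16, adjusted p = 0.0257), and its call was lost without any tumor of G164 or G144 (0.0791 to 0.192). Gdf3, a ligand of the family, was at 1.28 and 1.61 CPM in G174, against 4.08 and 7.37 CPM in G184 (log2 fold change −1.98, SE 0.33, adjusted p = 0.0153), and its call was lost without tumor 1 of G174 (0.0619) or tumor 9 of G184 (0.0646). In the difference of KO effects, Dcn (−3.49, adjusted p = 0.00326), Bmper, which encodes a BMP-binding protein (−2.54, adjusted p = 0.0102), and Thbs1 (2.07, adjusted p = 0.00875) kept their calls without each tumor in turn, while Gdf11 (1.45, adjusted p = 0.0114) lost its call without tumor 6 of G164 (0.0549). Between the controls, Gdf3 (log2 fold change 1.71, adjusted p = 0.0228) and Dcn (1.36, adjusted p = 0.0307) were higher and Gdf11 (−0.94, adjusted p = 0.0246) was lower in G184 than in G144, and each was lost without tumor 9 of G184 (0.109, 0.130 and 0.152) and without either tumor of G144 (0.0685 to 0.170). Further fits without a tumor that cost these calls were those without either tumor of G164 for Dcn (0.0578 and 0.0588) and Gdf11 (0.0538 and 0.0535), and without tumor 6 of G184 for Gdf11 (0.0556).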

How the data were processed

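Total RNA of 8 tumors from 4 mice was sequenced as stranded, ribosome-depleted, paired-end libraries over 4 lanes and 2 runs, which gave 64 deposited files. Per the labels, the authors mapped the reads with STAR to GRCm38 and deposited raw read counts per gene, unnormalised, for both strands and without strand, with tool versions not given in the sources used here. Reverse-strand counts, the sense of the kit, were summed over lanes and runs per tumor. Forward-strand counts were 4.76 to 6.80% of both strands together. On the reverse strand, 28.3 to 34.9% of reads were assigned to no annotated feature and were left out. In all, 48.0 to 52.3% of reads were counted in a gene. A second table of the authors, counts summed per mouse, equalled the unstranded sums in all 55381 genes it holds and was used only for this check.

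Genes were filtered by filterByExpr (minimum count 10, minimum total count 15), which kept 22187 genes, and normalised by TMM. The quasi-likelihood test of edgeR 4.0.16 (R 4.3.3, limma 3.58.1) was fitted with a mean per mouse, with 4 residual degrees of freedom, and p-values were adjusted over all genes at a threshold of 0.05. The fit was also run on simulated counts that held changes put into the homozygous KO and no other difference between mice. That run does not bear on the spread between mice. Levels, counts of called members and markers were tabulated with Python 3.11.15 and pandas 2.3.3. The members and all lists were chosen with earlier results of these data known. Members past the threshold in any comparison were named with the value in each tumor, as was the member with the most counts among the others of each role, and the rest were given by their ranges. Of the other pathway genes, up to 2 called ones in each direction and comparison, those with the largest change, were named. Alternatives were DESeq2 1.42.0, its size factors, library size alone, no filter, unstranded counts, each run alone, fits of the compared mice alone, sums per mouse, and leaving out each tumor. The GENCODE annotation of GRCm38 gave positions, and RefSeq (GRCm38.p6) gave upstream sequences.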

Additional observations from a re-analysis of the deposited data

Results flagged for a closer look

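The effect of Cre in fl/fl mice (G174 against G184) differed from that in fl/wt mice (G164 against G144) for 5 members by the interaction term of edgeR. The 5 were 11.9% of the 42 tested, against 13.1% of all genes with a negative and 12.0% with a positive difference past the threshold. The difference of the log2 fold changes was −2.20 for Chrd, −1.75 for Bmp5, −0.94 for Tgfbr1, −0.91 for Tgfbr2 and −0.72 for Smad3. In each of the 5 the effect was negative in fl/fl and positive in fl/wt mice. All tumors of G174 and G144 lay below all tumors of G184 and G164 in each. Such a separation was found in 7 members (16.7%), against 26.5% of all genes in either direction. The same contrast separates the younger mice G174 and G144 from the older mice G184 and G164, so that age, mouse and genotype cannot be told apart. For Tgfbr1, Tgfbr2 and Smad3 neither KO comparison passed on its own, and no heterozygous change passed for any of the 5. Tgfbr1 and Smad3 were also called between the controls, neither of which carries Cre (edgeR adjusted p = 0.0427 and 0.0432). Of the 5, the difference of Chrd kept its call without each of the 8 tumors in turn, and the other 4 each lost it without 6 or 7 of them.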

How the results depend on the processing

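The number of members called moved with the processing, and the cause was not tested. The share of all genes called was worked out only for the edgeR fit described above. Counts of members under other settings therefore have no background beside them. For the homozygous KO against its control, 4 members were called, and 10 without the filter on low counts, 2 on unstranded counts, 2 in the first run alone, 2 in the second run alone, 8 by DESeq2, 0 in the fit of the 2 mice compared, and 0 to 6 when 1 tumor was left out. For the heterozygous KO against its control, 0 were called, and 3 without the filter, 3 by DESeq2, 3 in the fit of the 2 mice compared, and 0 to 1 when 1 tumor was left out. For the difference of KO effects, 5 were called, and 9 with library size alone, 15 without the filter, 10 by DESeq2, and 1 to 9 when 1 tumor was left out. Between the controls, 3 were called, and 7 without the filter, 6 by DESeq2, 0 in the fit of the 2 mice compared, and 0 to 5 when 1 tumor was left out. For Cre-positive against Cre-negative mice, 0 were called, and 1 without the filter, 1 by DESeq2, and 0 to 1 when 1 tumor was left out. The other alternatives left each count within 1.5 times. Of 3316 recomputed member values, 3153 stayed on their side of the threshold, 83 lost a call, 80 gained one, and 0 called values changed sign. A mouse left with 1 tumor was assumed to vary like the others. No paired analysis was possible because the mice share only tumor number 6, which names a tumor within a mouse. Counts of 18 to 54 for Bmp5 and 1 to 133 for Grem1 limit the precision of these genes, and with 1 mouse per genotype only the fit of Cre-positive against Cre-negative mice on sums per mouse, which called 0 members, covers the spread between mice.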
